A study of Mus musculus with 32 samples.

Results

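The data concern 3 genes of GTP-binding signal proteins in mouse prefrontal cortex: Gna13, Drg2 and Rras. They were chosen by name, and by ethanol contrasts of these arrays measured earlier: Gna13 and Drg2 by ethanol against air in female seizure-prone mice, Gna13 also by the difference of that response between the selected lines, and Rras by ethanol against air in male seizure-resistant mice. Each was found by its title and stands on 1 spot, so the members are 3 of the 4696 gene spots of the array. No spot of an expressed sequence tag (EST, a single read of a cDNA clone) carried one of the names.

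Proteins of this kind are switches that signal while GTP is bound and stop when it is hydrolysed. Gna13 encodes Galpha13, a heterotrimeric G protein subunit that passes signals from cell-surface receptors to the actin cytoskeleton. Rras encodes R-Ras, a small GTPase of the Ras family that acts on integrins and cell adhesion and is known from blood vessels. Drg2 encodes a developmentally regulated GTP-binding protein, one of a conserved pair of GTPases that bind partner proteins of the DFRP family.

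The mice were bred from a heterogeneous stock for severe ethanol withdrawal (Withdrawal Seizure-Prone, WSP) or mild withdrawal (Withdrawal Seizure-Resistant, WSR), each in 2 separately derived breeding lines, WSP-2 and WSP-1, and WSR-2 and WSR-1. Adult males and females of each line were injected with ethanol, at 1.5 g/kg and at a higher dose in WSP-2, and kept in ethanol vapor (EtOH) for 72 hours, while controls stayed in chambers with air and got no ethanol. All of them, air controls included, received pyrazole at 68.1 mg/kg, which slows ethanol breakdown, and tissue was dissected after 21 days of abstinence. The 8 groups were male WSP EtOH, male WSP Air, male WSR EtOH, male WSR Air, female WSP EtOH, female WSP Air, female WSR EtOH and female WSR Air. Each held 4 arrays, 2 from each breeding line, and each array was hybridised with 33P-labelled RNA pooled from 2 animals. Nothing in the labels says whether pools of 1 group shared litters or chambers, so p-values measure the spread between pools. In the fit of 8 groups that spread includes any difference between the 2 breeding lines of a group. The p-values between WSP and WSR count pools, while each selection had only 2 breeding lines, so they may be too small.

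Brightness of the arrays differed by line and sex. Between 518 and 604 gene spots reached 2 times background on male WSP arrays, 1682 to 2040 on male WSR arrays, 588 to 1428 on female WSP arrays and 783 to 1095 on female WSR arrays. Values below are quantile-normalized log2 intensities unless they are given as times background, which is the deposited intensity over the single background value of that array. Of 9 marker spots of brain cell types, blood and choroid plexus, 7 were kept: the astrocyte enzyme Glul, the choroid plexus carrier Ttr and 1 haemoglobin spot stood above 2 times background on all 32 arrays, and the neuronal surface protein Thy1 did so on 11.

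The 3 genes lay at different heights of the measurable range. Drg2 was bright on every array, at least 2 times background on all 32, and its mean intensity ranked at percentile 97.8 of the gene spots. Gna13 reached 2 times background on 10 arrays (percentile 75.5). Rras did so on 6 (percentile 53.8), all of them male WSR. All 3 passed the filter of 4 arrays at 2 times background and were among the 2084 probes tested. Rras passed through male WSR alone, the group in which it was high, so a difference between that group and the others was built into its being kept, and is given with no test.

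**Figure D1:**
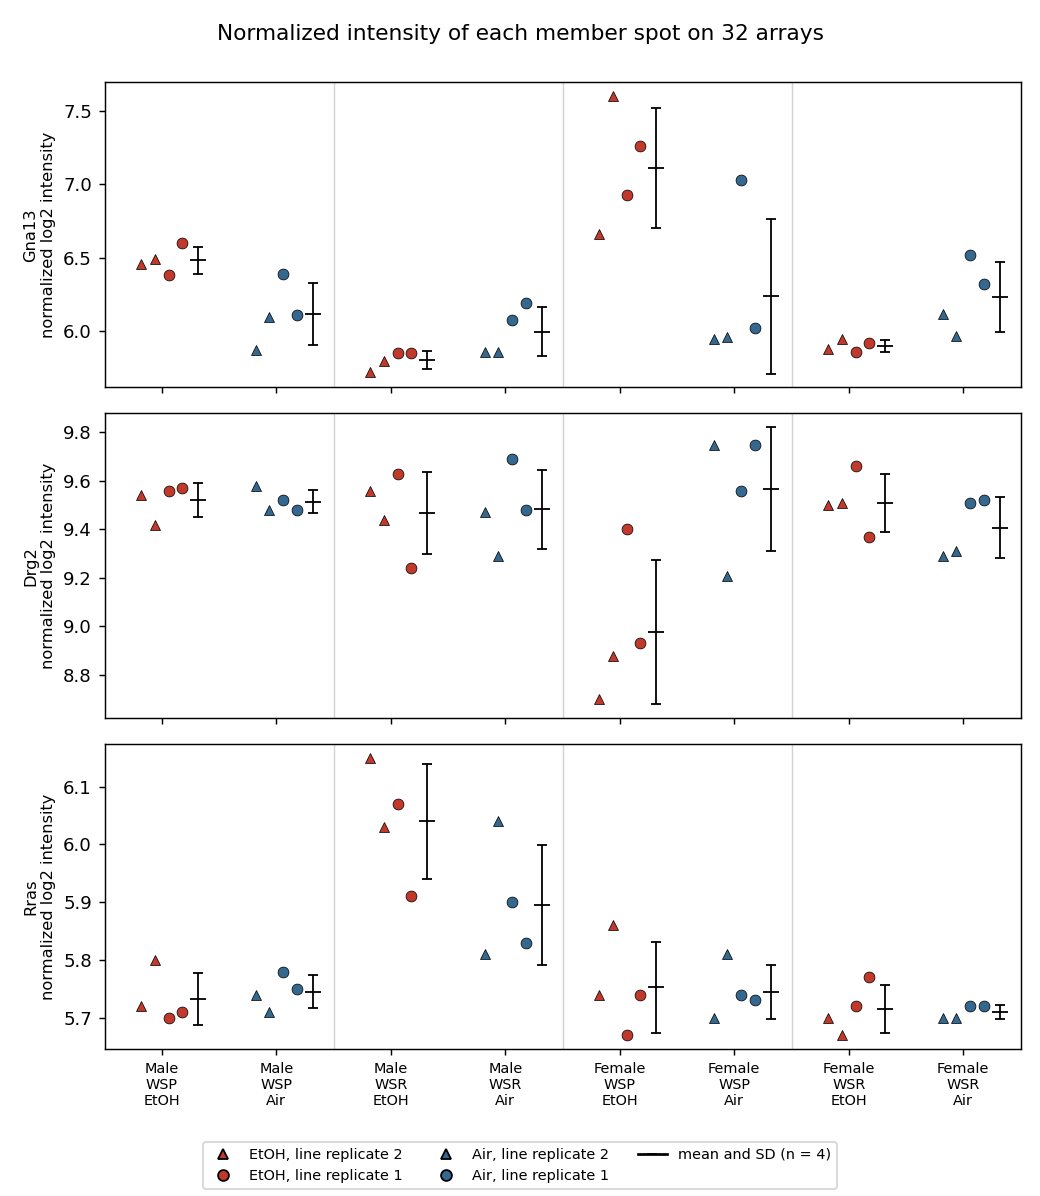
Quantile-normalized log2 intensity (vertical axes, 1 panel a gene) of Gna13, Drg2 and Rras on each of the 32 arrays, in 8 groups of sex, line and treatment. Triangles are arrays of breeding line replicate 2, circles of replicate 1, and the bars show mean and SD (n = 4); Gna13 is highest in female WSP EtOH (mean 7.11), Drg2 lowest there (8.98), and Rras highest in male WSR EtOH (6.04).

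Gna13 was higher after ethanol than in air in both sexes of WSP and lower in both sexes of WSR. In female WSP it read 7.26, 6.93, 7.60 and 6.66 after ethanol, against 6.02, 7.03, 5.96 and 5.95 in air. All 4 ethanol arrays lay above the mean of the air arrays, and the groups overlapped only through the air array at 7.03. The means were 7.11 ± 0.41 after ethanol and 6.24 ± 0.53 in air (SD, n = 4 each), a difference of 0.87 on the log2 scale, or 0.38 with median scaling in place of quantile normalization. Gna13 was chosen for these ethanol contrasts, so the values are a description and carry no test. In that contrast 0.384% of the 2084 probes passed an adjusted p of 0.05 (limma with Benjamini-Hochberg adjustment, as in every call below).

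Over background, the same female WSP arrays gave 2.58, 3.83, 9.17 and 3.01 times after ethanol, against 1.55, 3.79, 2.01 and 1.77 times in air. All 4 ethanol arrays and 2 of the 4 air arrays were at least 2 times background. Expressed as a rank among the gene spots of its own array, Gna13 stood between percentiles 85.4 and 90.7 after ethanol, against 68.4 to 88.2 in air. Without the air array at 7.03, an alternative added after its value was seen, the difference was 1.13.

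In male WSP, Gna13 read 6.60, 6.38, 6.49 and 6.46 after ethanol, against 6.11, 6.39, 6.10 and 5.87 in air. The difference was 0.36, all 4 ethanol arrays were above the air mean, and 0 of the 8 arrays reached 2 times background, so no fold is given. With median scaling it was 0.04. The share of probes called there was 0.048%.

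The direction was the other one in WSR. In female WSR, Gna13 read 5.92, 5.86, 5.95 and 5.88 after ethanol, against 6.32, 6.52, 5.97 and 6.12 in air, so the groups did not overlap. The difference was -0.33, 0 ethanol arrays and 1 air array reached 2 times background, and the share of probes called was 0.048%. No fold is given at this signal. In male WSR it read 5.85, 5.85, 5.80 and 5.72 after ethanol, against 6.19, 6.08, 5.86 and 5.86 in air, again without overlap, with a difference of -0.19 and 0% of probes called (64 at an unadjusted p under 0.05). There the ethanol arrays stood at 0.975 to 2.14 times background, against 1.72 to 4.53 times in air.

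The same opposition held in each breeding line. The ethanol minus air difference of Gna13 was 0.48 in male WSP-2 and 0.24 in male WSP-1, and 1.17 in female WSP-2 and 0.57 in female WSP-1. In the resistant lines it was -0.10 in male WSR-2 and -0.28 in male WSR-1, and -0.13 in female WSR-2 and -0.53 in female WSR-1. Each of these compares 2 pools with 2, so all 4 WSP values lay above 0 and all 4 WSR values below it. The injected ethanol dose was higher in WSP-2, so dose and breeding line cannot be told apart there. Averaged over the sexes, the response in WSP exceeded that in WSR by 0.88, the value that chose the gene (0.50 with median scaling), in a contrast where 0.24% of probes were called.

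**Figure D2:**
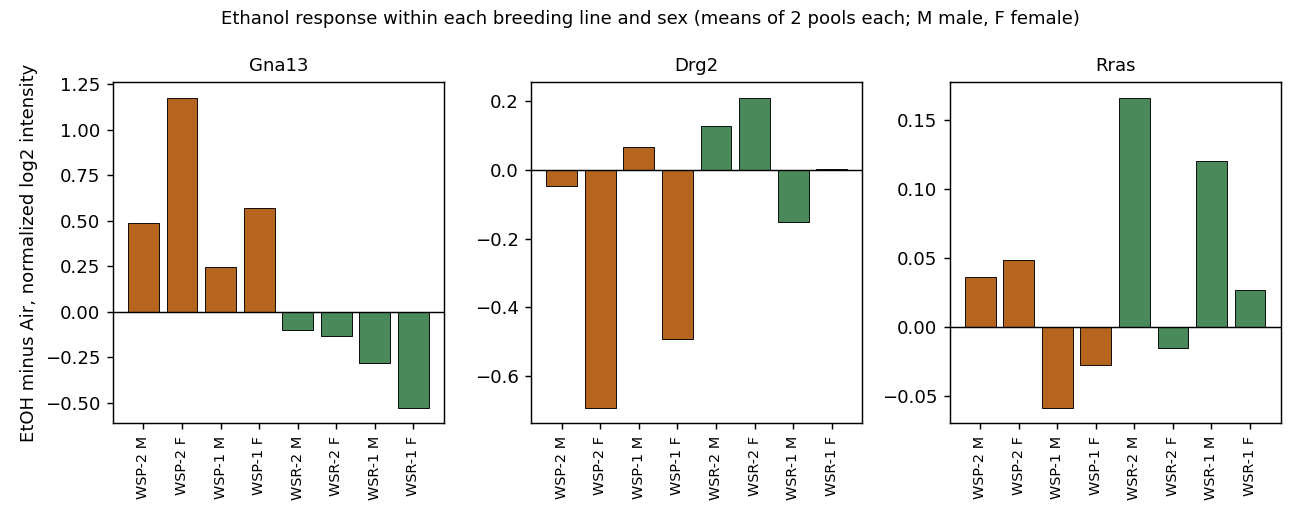
Ethanol minus air difference in normalized log2 intensity (vertical axes) of each gene within each breeding line and sex, each bar the mean of 2 ethanol pools minus the mean of 2 air pools (M male, F female). Brown bars are WSP and green bars WSR; Gna13 lies above 0 in all 4 WSP bars and below 0 in all 4 WSR bars, and Drg2 stands lowest in female WSP-2 and female WSP-1.

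A vessel marker had ethanol differences of the same sign as Gna13 in both sexes of WSP and in female WSR. In male WSR its difference was smaller than its SE. The vessel marker Eng (endoglin, a TGF-beta co-receptor of endothelium) differed by 0.57 ± 0.16 (SE) between ethanol and air in female WSP and by -0.30 ± 0.16 in female WSR. It was called in neither female group (adjusted p = 0.11 in WSP and 0.43 in WSR). In males Eng differed by 0.57 ± 0.16 in WSP (adjusted p = 0.17) and by -0.035 ± 0.16 in WSR, and was called in neither. It reached 2 times background on 11 of the 32 arrays, with 0 in male WSP EtOH and 0 in male WSP Air. Of the 7 kept marker spots 3 had a difference above 0 in female WSP, with 0 called. For the WSP minus WSR difference of the response 1 of the 7 was called, Eng (0.74, adjusted p = 0.040). The mean level over the 7 spots ran from 7.27 to 7.35 in female WSP EtOH, against 7.10 to 7.38 in female WSP Air. Thy1 was at 2 times background on 0 arrays of female WSP EtOH, against 3 of female WSP Air. Those ethanol arrays were dimmer as a set, with 588 to 1028 gene spots at 2 times background, against 857 to 1428. After normalization Thy1 differed by -0.27 ± 0.15 (SE) and was not called (adjusted p = 0.48). The part of these cell types in the Gna13 values was not tested, and in bulk tissue fewer cells of a type and less RNA per cell cannot be told apart.

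The neighbouring spots were read for spill of signal. The Gna13 spot lies 1 column from an EST spot whose mean intensity was 769 in female WSP EtOH, against 992 in female WSP Air, while the Gna13 spot had 41.7 and 22.5 in those groups. These are means over arrays of unequal brightness, and the SD of the EST was 605 in female WSP EtOH. After normalization the EST differed by 0.28 between ethanol and air in female WSP, the same sign as Gna13. In female WSR it differed by 0.11, while Gna13 was lower after ethanol. The part of this neighbour in the Gna13 values was not tested.

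**Figure D3:**
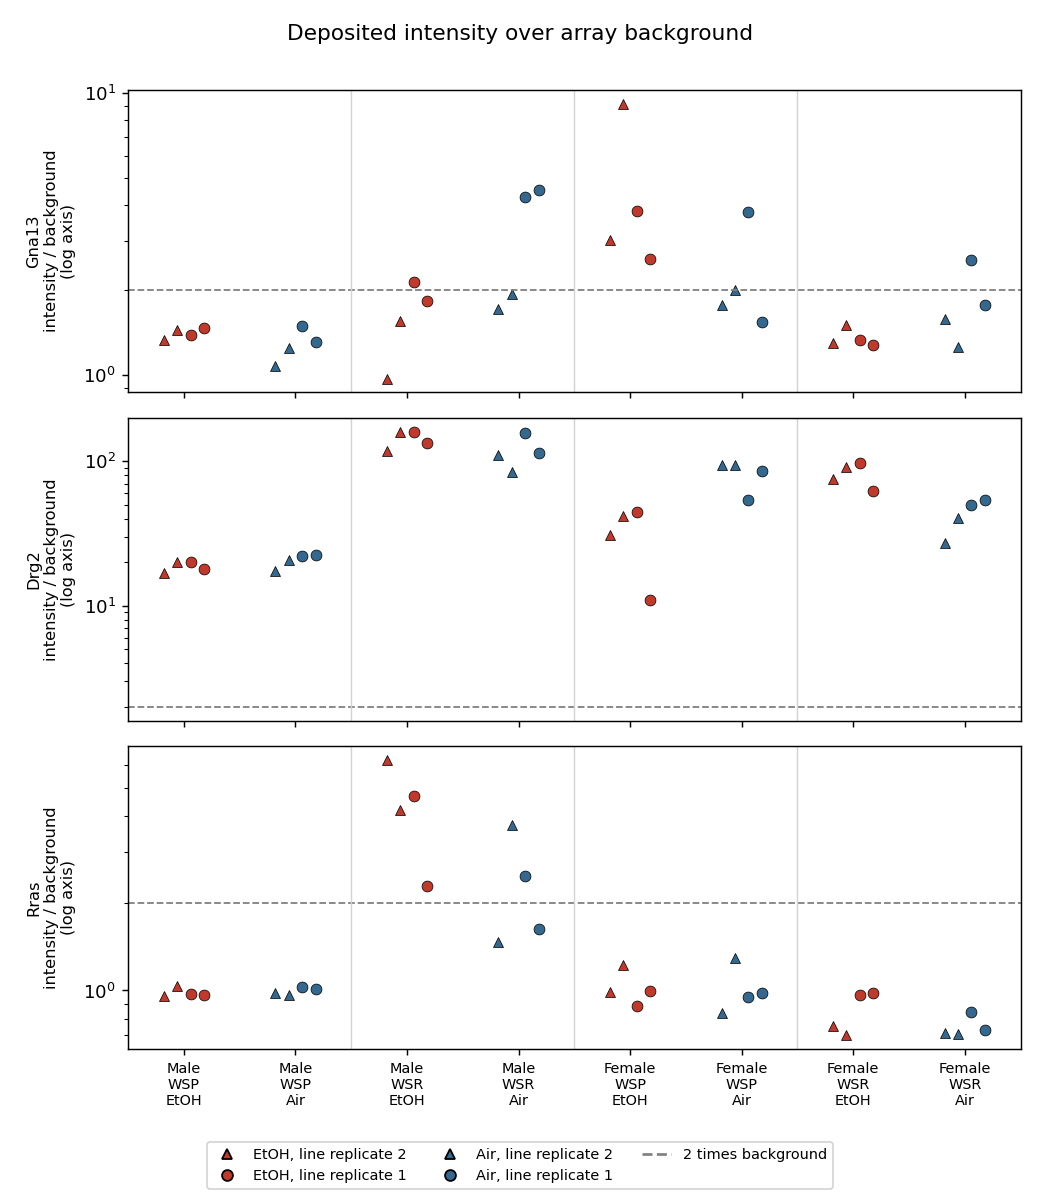
Deposited intensity over array background (log axes) of each gene on each array, in the same 8 groups, with the dashed line at 2 times background. Gna13 crosses the line on 10 arrays, 4 of them female WSP EtOH, Drg2 lies far above it on all 32, and Rras crosses it on 6 arrays of male WSR only.

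The largest ethanol difference of Drg2 among the 4 combinations of sex and line was in female WSP, where it was lower after ethanol. It read 8.93, 9.40, 8.88 and 8.70 after ethanol, against 9.75, 9.56, 9.21 and 9.75 in air. All 4 ethanol arrays lay below the air mean, and the groups overlapped through the ethanol array at 9.40. The means were 8.98 ± 0.30 after ethanol and 9.57 ± 0.25 in air (SD, n = 4 each), a difference of -0.59 (-1.46 with median scaling), and this contrast chose the gene. Over background the groups did not overlap, at 11.0, 44.7, 41.9 and 30.7 times after ethanol, against 85.3, 54.2, 93.8 and 93.6 times in air.

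The female WSP ethanol arrays were the dimmer ones as a set. Between 588 and 1028 of their gene spots reached 2 times background, against 857 to 1428 in female WSP Air. The spot touching Drg2 with the highest intensity was Baf53a, a subunit of chromatin remodelling complexes, which had a mean intensity of 256 after ethanol, against 713 in air, and differed by -0.36 after normalization. Drg2 itself had 284 after ethanol, against 822 in air. The rank of Drg2 among the gene spots of its array was between percentiles 94.5 and 97.6 after ethanol, against 96.7 to 98.8 in air. The part of array brightness in the Drg2 difference was not tested. Without replicate 1 of female WSP EtOH, where Drg2 stood at 11.0 times background, the difference was -0.57.

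Elsewhere the ethanol differences of Drg2 were smaller. In male WSP it read 9.57, 9.56, 9.42 and 9.54 after ethanol, against 9.48, 9.52, 9.48 and 9.58 in air, a difference of 0.0098 ± 0.13 (SE, adjusted p = 1.0). In female WSR it read 9.37, 9.66, 9.51 and 9.50 after ethanol, against 9.52, 9.51, 9.31 and 9.29 in air, a difference of 0.10 ± 0.13 (adjusted p = 0.78). Neither passed the test, and the groups overlapped in both. In male WSR it read 9.24, 9.63, 9.44 and 9.56 after ethanol, against 9.48, 9.69, 9.29 and 9.47 in air, a difference of -0.013. By breeding line, the female WSP difference was -0.69 in WSP-2, which had the higher injected dose, and -0.49 in WSP-1. It was 0.21 in female WSR-2 and 0.00083 in female WSR-1. The response of Drg2 averaged over the sexes differed by -0.34 between WSP and WSR (-1.24 with median scaling).

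Rras reached 2 times background in male WSR only, the combination of sex and line with the brightest arrays. The GTP signalling spots Rab24, Arf6 and Mapk13 reached it on all 8 male WSR arrays. Elsewhere they did so on at most 1 array per combination. Phospholipase C epsilon 2 went the other way, with 2 male WSR arrays and 5 female WSP arrays. In male WSR, Rras read 5.91, 6.07, 6.03 and 6.15 after ethanol, against 5.83, 5.90, 6.04 and 5.81 in air. The difference was 0.14 (0.38 with median scaling) in the contrast that chose it. All 4 ethanol arrays lay above the air mean, and the groups overlapped. Over background these arrays stood at 2.29, 4.67, 4.21 and 6.23 times after ethanol, against 1.63, 2.48, 3.73 and 1.47 times in air, so all 4 ethanol arrays and 2 of 4 air arrays were at least 2 times background. Both breeding lines had a value above 0, at 0.17 in male WSR-2 and 0.12 in male WSR-1. The ethanol arrays of male WSR had 1834 to 2040 gene spots at 2 times background, against 1682 to 1979 on the air arrays.

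A spot touching Rras was bright in the same group. This EST had a mean intensity of 539 in male WSR EtOH, against 360 in male WSR Air, and between 18.9 and 45.9 in the 4 WSP groups and 58.0 and 42.1 in female WSR EtOH and Air. The Rras spot had 56.3 in male WSR EtOH, against 31.8 in male WSR Air, and no more than 14.5 in the other groups. After normalization the EST differed by 0.19 between ethanol and air in male WSR and by 0.42 in female WSR, where Rras differed by 0.0060. The part of this neighbour in the Rras values was not tested.

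On the other 24 arrays Rras stood between 0.701 and 1.29 times background. Its ethanol difference was -0.011 ± 0.046 in male WSP (SE, adjusted p = 0.99) and 0.0060 ± 0.046 in female WSR (adjusted p = 0.97), and it was 0.011 in female WSP. At this signal a change of Rras in those groups was not detectable. Its p-values there therefore do not show an unchanged level. Drg2, whose choice also did not use the male WSP and female WSR contrasts, was called in neither, beside 0.048% of all probes in each. At an unadjusted p under 0.05 the count of members was 0 in both.

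Next, the selected lines were compared over both treatments, a contrast that takes equally from ethanol and air arrays. The contrast holds the ethanol arrays that chose Gna13, so its values are given with no test, here and between the sexes. The same holds for Drg2 wherever female WSP is compared. Gna13 averaged 6.68 ± 0.64 in female WSP and 6.07 ± 0.24 in female WSR (SD, n = 8 each), a difference of 0.61 ± 0.13 (SE). It was at least 2 times background on 6 WSP arrays and 1 WSR array, the groups overlapped, and 5 of 8 WSP arrays lay above the WSR mean. In air the means of Gna13 were 6.24 in WSP and 6.23 in WSR, against 7.11 in WSP and 5.90 in WSR after ethanol, so the difference lay in the ethanol arrays, the same ones that took part in the choice of the gene. With median scaling it was 0.25.

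Drg2 averaged 9.27 ± 0.41 in female WSP and 9.46 ± 0.13 in female WSR, a difference of -0.18 ± 0.091 (SE). In this contrast 12.1% of all probes were called. In air the Drg2 means were 9.57 in WSP and 9.40 in WSR, against 8.98 in WSP and 9.51 in WSR after ethanol. The sign was thus that of the ethanol arrays, of which the WSP ones took part in the choice of the gene. With median scaling the difference was -0.82. Rras, below 2 times background on all 16 female arrays, differed by 0.037 ± 0.032 (adjusted p = 0.54).

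In males 58.3% of all probes were called between the lines. Gna13 averaged 6.30 ± 0.25 in male WSP and 5.90 ± 0.15 in male WSR (SD, n = 8 each), a difference of 0.40 ± 0.13 (SE), with 7 of 8 WSP arrays above the WSR mean. In air the means were 6.12 in WSP and 5.997 in WSR, against 6.48 in WSP and 5.81 in WSR after ethanol. The intensities ran the other way: 0 of 8 WSP arrays reached 2 times background (1.08 to 1.50 times), against 3 of 8 WSR arrays (0.975 to 4.53 times). No fold is therefore given. With median scaling the Gna13 difference was -0.07, which is 0.60 above the median shift of all probes (-0.67), and on the scores of the authors' deposited table it was 0.28.

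Rras averaged 5.74 ± 0.034 in male WSP and 5.97 ± 0.12 in male WSR, a difference of -0.23 ± 0.032 (SE), and the groups did not overlap. None of the 8 male WSP arrays and 6 of the 8 male WSR arrays reached 2 times background. The lowest signal at 2 times background on the male WSP arrays was too high for a fold above 1, and none is given. With median scaling the Rras difference was -0.44, still 0.23 above the median shift of all probes. Drg2 averaged 9.52 ± 0.055 in male WSP and 9.47 ± 0.16 in male WSR, a difference of 0.046 ± 0.091 that was not called (adjusted p = 0.69). Its intensity was 17.0 to 22.4 times background in male WSP, against 84.7 to 160 times in male WSR, and its direction between the lines depended on the scaling: -2.14 with median scaling and 2.10 on the deposited scores, both called.

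**Figure D4:**
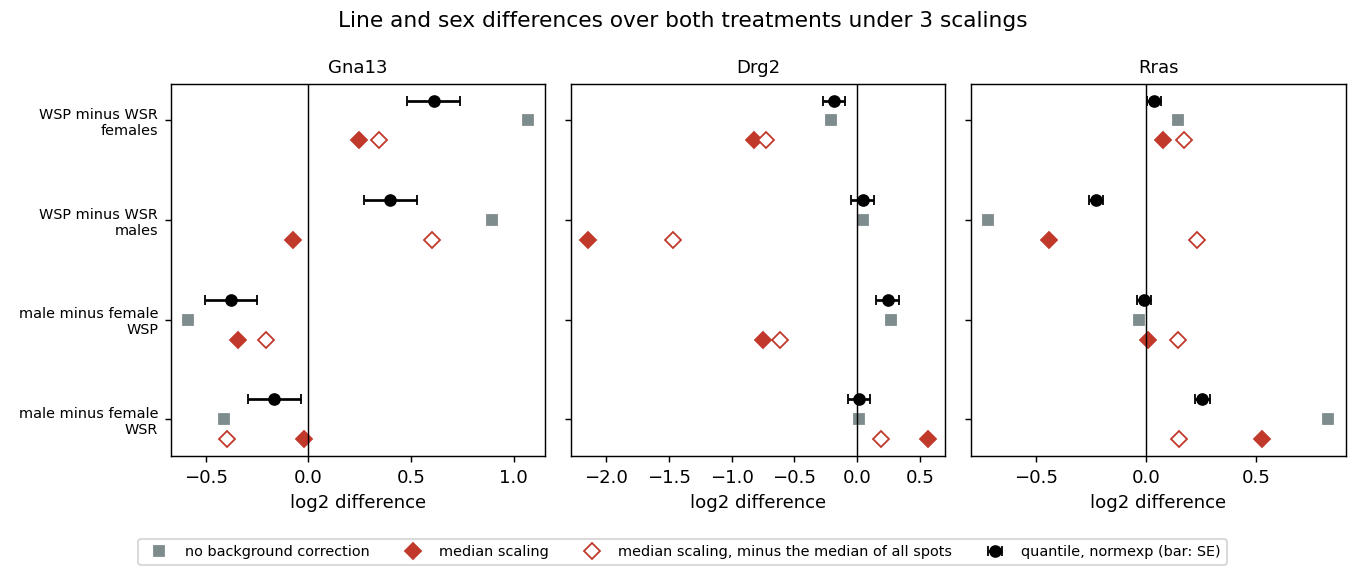
Difference (horizontal axes, log2) of each gene between lines in females and males and between sexes in WSP and WSR, over both treatments. Circles are the quantile-normalized values with their SE, squares those without background correction, filled diamonds those with median scaling and open diamonds the same minus the median over all probes; Drg2 spans -2.14 to 0.05 between the lines in males, and Rras changes sign there once the median shift is taken off.

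The sexes were then compared within each line. In WSP, Gna13 averaged 6.30 in males and 6.68 in females, a difference of -0.38 ± 0.13 (SE). After ethanol the means were 6.48 in males and 7.11 in females, against 6.12 in males and 6.24 in females in air. Without replicate 2 of female WSP Air the difference was -0.24. Drg2 averaged 9.52 in male WSP and 9.27 in female WSP, a difference of 0.25 ± 0.091 (SE), in a contrast where 18.7% of all probes were called. In air its means were 9.51 in males and 9.57 in females, against 9.52 in males and 8.98 in females after ethanol. The Drg2 difference thus lay in the ethanol arrays, of which the female ones took part in the choice of the gene, and it carries no test. Without replicate 2 of every group it was 0.31, and without replicate 2 of female WSP Air alone it was 0.25. All 8 male arrays lay above the female mean, but with median scaling the difference was -0.75. Rras differed by -0.011 ± 0.032 (adjusted p = 0.88).

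In WSR 60.2% of all probes were called. Rras averaged 5.97 in males and 5.71 in females, a difference of 0.26 ± 0.032 (SE). The groups did not overlap, and 6 of 8 male arrays and 0 of 8 female arrays reached 2 times background. The line difference of Rras was -0.23 in males and 0.037 in females. It differed between the sexes by -0.27 ± 0.046, a value that rests on male WSR, the group through which the gene was kept, in a contrast where 53.1% of all probes were called. Gna13 averaged 5.90 in males and 6.07 in females, a difference of -0.17 ± 0.13. Drg2 averaged 9.47 in males and 9.46 in females, a difference of 0.016 ± 0.091 (adjusted p = 0.89), again with both signs among the scalings.

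The order of the 4 combinations of sex and line differed by gene. For Gna13 it was female WSP (6.68), male WSP (6.30), female WSR (6.07) and male WSR (5.90), an order given with no test. The place of male WSP is uncertain, since 0 of its 8 arrays reached 2 times background, against 3 of 8 in male WSR, and its difference from male WSR was -0.07 with median scaling. For Rras male WSR, which had the brightest arrays, stood first (5.97). The other groups lay between 5.71 and 5.75, with no called difference among those compared. For Drg2 all 4 means lay between 9.27 and 9.52, the lowest in female WSP, the group whose ethanol arrays took part in the choice of the gene.

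Between the breeding lines of 1 selection, a test is given only for Drg2 in WSR and Rras in WSP, and neither was called. The other comparisons hold the arrays that chose the gene or kept it. The WSP-2 ethanol mice also had the higher dose. Over sexes and treatments, Gna13 averaged 6.39 in WSP-2 and 6.59 in WSP-1, a difference of -0.20 ± 0.12 (SE). It averaged 5.90 in WSR-2 and 6.07 in WSR-1, a difference of -0.18 ± 0.12. Drg2 differed by -0.15 ± 0.088 between WSP-2 and WSP-1 and by -0.091 ± 0.088 between WSR-2 and WSR-1 (adjusted p = 0.71). Rras differed by 0.033 ± 0.032 between WSP-2 and WSP-1 (adjusted p = 0.78) and by 0.020 ± 0.032 between WSR-2 and WSR-1. Neither tested difference had an unadjusted p under 0.05. Over all probes 0% were called between WSP-2 and WSP-1 (225 at an unadjusted p under 0.05) and 0.048% between WSR-2 and WSR-1. Gna13 nevertheless reached 2 times background on 4 arrays of WSR-1 and 0 of WSR-2.

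The genes were also set beside the other GTP signalling spots with a gene title: G protein subunits, small GTPases, their receptors and effectors. Of 42 such spots 13 were kept. In the ethanol contrasts 0 of the 13 were called in female WSP, in male WSP and in male WSR (2, 1 and 0 at an unadjusted p under 0.05). Their median difference in female WSP was -0.05, beside -0.0049 over all probes. The largest differences in female WSP were 0.45 ± 0.15 (SE) for Gna11, another G protein alpha subunit (adjusted p = 0.14), and -0.30 ± 0.11 for Arl6, a small GTPase of cilia (adjusted p = 0.18). In male WSP they were 0.33 for phospholipase C epsilon 2 and -0.25 for Gnao1, and in male WSR the largest was 0.14 for Rhoc. In female WSR 1 was called, Arl6, which was higher after ethanol by 0.60 (adjusted p = 0.00892), in a contrast where 0.048% of all probes were called. With median scaling it was 0.50 and not called (adjusted p = 0.13). Arl6 was also the 1 called for the WSP minus WSR difference of the response (-0.58, adjusted p = 0.018), where 0.24% of all probes were called. Both calls were lost without replicate 2, 3 or 4.

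Between the lines in females 2 of the 13 were called, beside 12.1% of all probes. Arl6 differed by 0.39 (higher in WSP, adjusted p = 0.000589), and Gnb2, a G protein beta subunit, by -0.38 (lower in WSP, adjusted p = 0.023). Both kept their sign with median scaling, without background correction and on the deposited scores, but Arl6 was then 0.14 with median scaling and not called (adjusted p = 0.28). The Arl6 difference lay in the air arrays: its means were 6.93 in WSP and 6.08 in WSR in air. After ethanol they were 6.63 in WSP and 6.69 in WSR. The median of the 13 was 0.02, beside -0.01 over all probes.

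In males 10 of the 13 were called between the lines, a share to be read against the 58.3% of all probes. The G protein subunits Gna11 (0.86) and Gnb2 (0.41), the small GTPase Rhoc (0.44) and the thrombin-activated receptor F2rl3 (0.27) were the 4 with the smallest p among the 6 higher in WSP. Lower in WSP were the kinase Mapk13 (-0.90), the vesicle GTPases Rab11a (-0.87) and Rab24 (-0.20), and Arf6 (-0.48), which acts at the cell surface. After the median shift was taken off, median scaling kept the sign of 5 of these 10, and Gna11 and Rhoc stood at -1.23 and -1.55 there. All 10 kept their sign without background correction.

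Between the sexes, 2 of the 13 were called in WSP, Arl6 (-0.63, lower in males) and Gnb2 (0.36, higher in males), beside 18.7% of all probes. Gnb2 was -0.09 with median scaling and not called (adjusted p = 0.67). In WSR 8 were called, a share near the 60.2% of all probes. Mapk13 (0.81), Rab11a (0.79) and Rab24 (0.22) were higher in males, and of the 5 lower in males those with the smallest p were Gna11 (-0.96), Arl6 (-0.43), Rhoc (-0.63) and F2rl3 (-0.49). Median scaling with the shift taken off kept the sign of 5 of these 8. Between breeding lines 0 of the 13 were called in WSP and 0 in WSR (0 and 5 at an unadjusted p under 0.05).

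The titled probes most like each gene were found by Pearson correlation over the 32 arrays, after the mean of each sex and line had been subtracted, among 451 kept probes. These values share array brightness and treatment and carry no test. Of the 3 closest to Gna13, endoglin (r = 0.76) and a transcript titled RP42 (r = 0.59) are given. For Drg2 they were a mutS homolog 5 spot (r = 0.68), an unnamed expressed segment of chromosome 2 titled Abbott 2 (r = 0.56) and the ligand of P-selectin (r = 0.54). For Rras they were cytochrome P450 2a4 (r = 0.60), a muscle-specific serine kinase (r = 0.57) and the MYB binding protein P160 1a (r = 0.57). The cytochrome P450 spot was, like Rras, at 2 times background on 6 arrays. Among themselves the members gave r = -0.42 for Gna13 and Drg2, 0.0040 for Gna13 and Rras, and -0.18 for Drg2 and Rras.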

How the data were processed

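The 32 arrays were analysed from the deposited single-array files, which per the file headers hold 1 spot intensity and 1 background intensity per row. Rows were joined by spot number, since 1 file is in another row order. The background was 1 value per array (6.96 to 30.3). For the scanner, the software and the genome build, none is given in the sources used here, and no coordinates are printed. A further table by the authors holds a score per spot and array: it was linear in the log2 intensity of its array, centred and scaled per array, with column medians from 7.29 to 8.55, and empty for spots not above background. It has 0 columns without a sample.

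Intensities were corrected by normexp with an offset of 50, moved to log2 and quantile normalized over 4696 gene spots. The offset compresses differences of dim spots. The filter asked for 2 times background or more on 4 or more arrays and left 2084 spots. limma 3.58.1 in R 4.3.3 fitted 1 mean per group (24 residual degrees of freedom), or 16 means of sex, breeding line and treatment (16 residual degrees of freedom) for breeding lines, with a variance trend and Benjamini-Hochberg adjustment over the 2084 probes. The fit was tested on simulated data.

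Members and lists were chosen with earlier results of these data known. Named genes were the members, list spots called in a contrast (at most 4 per direction, by p), the 2 largest differences of an ethanol contrast where none was called, and the 3 most correlated titled probes. List spots were taken by title words. The single results of 2 spots that this rule names are not reported here. Names are those of the array files; the clone of the Rras spot is a synonym of Rras in the RefSeq gene table at hand, and 1 of the 3 members was matched in this way. Alternatives were median scaling, no background correction, the deposited scores, no filter, a replicate block, leaving out each replicate, and leaving out 2 single arrays. The number of arrays limits the precision.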

Additional observations from a re-analysis of the deposited data

Results flagged for a closer look

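Gna13 on replicate 2 of female WSP Air stood at 7.03, while the nearest of the other 3 arrays of its group read 6.02; the gap was 0.93 of the group's whole range, above Dixon's 95% critical value for 4 samples. Of 24 groups of 4 arrays looked at, chance flags about 1 in 20. Over background that array gave 3.79 times.

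The WSP minus WSR difference of Rras differed between males and females by -0.27 ± 0.046 (SE). Rras was at 2 times background in male WSR only and passed the filter through that group, so the value was built into its being kept and carries no test.

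Every ethanol array of Gna13 lay above the air mean in WSP and below it in WSR, in both sexes. The responses of WSP and WSR differed by 0.56 in males and by 1.20 in females. The difference was not tested, because the response of Gna13 chose the gene.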

How the results depend on the processing

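Of 406 recomputed values of 44 results, 340 kept their direction and their side of the threshold or moved by less than the spread. The cause was not tested where they did not. Median scaling gave for Gna13 0.25 between the lines in females and -0.073 in males, and for Drg2 -0.82 and -2.14; between the sexes Drg2 had -0.75 in WSP and 0.57 in WSR. It gave ethanol differences of 0.38 (female WSP) and 0.039 (male WSP) for Gna13, -1.46 (female WSP) and 0.25 (male WSR) for Drg2 and 0.38 (male WSR) for Rras, and response differences of 0.50, -1.24 and -0.19 for Gna13, Drg2 and Rras. It moved the median of all probes by -0.67 between the lines in males, by 0.38 between the sexes in WSR, and called 711 probes in place of 252 between the lines in females.

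On the deposited scores, whose unit is not log2, Gna13 had 0.28 between the lines in males, and Drg2 had 2.10 there, 1.03 between the sexes in WSP and -1.27 in WSR. Ethanol differences on them were 1.59 (female WSP), -0.82 (female WSR) and -0.68 (male WSR) for Gna13, -0.78 (female WSP) for Drg2, and 0.27 (female WSP) and 0.80 (male WSR) for Rras, with a response difference of 1.72 for Gna13. Without background correction the sex difference of Gna13 in WSP was -0.59, and without a filter it was -0.38. The ethanol differences of Gna13 without background correction were 1.52 and -0.73 in female WSP and WSR. In male WSP and WSR they were 0.71 and -0.53, with a response difference of 1.74. Rras without background correction had 0.38 in male WSR and a response difference of -0.21.

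Leaving out each replicate gave -0.46 to -0.30 for the sex difference of Gna13 in WSP, and 0.19 to 0.31 for Drg2. It gave 0.62 to 1.20 for the ethanol difference of Gna13 in female WSP, and as little as 0.079 for Rras in male WSR. Leaving out replicate 2 of female WSP Air gave 1.13 for that Gna13 difference and -0.24 for its sex difference in WSP, and leaving out replicate 1 of female WSP EtOH gave -0.35.

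Counts of called list spots with median scaling were 1 (female WSP ethanol), 0 (female WSR ethanol), 4 (response), 4 (lines, females), 7 (sexes, WSP), 1 (WSP-2 against WSP-1) and 2 (WSR-2 against WSR-1). The deposited scores and no filter each gave 5 for the sexes in WSP. Leaving out replicates gave 0 to 1 for female WSR ethanol, the response and both breeding line contrasts, 1 to 3 for the lines in females and 1 to 3 for the sexes in WSP. The Arl6 calls for ethanol in female WSR and for the response were lost without replicate 2, 3 or 4.

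The replicate number as a block left the sex difference of Drg2 in WSP at 0.25 and changed no call of a member in the contrasts given with a test. Samples of 1 number deviated together with r over 0.1 in 5 of 16 pairs (-0.10 to 0.41), so the numbers do not pair the samples.

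Gna13 on 22 arrays and Rras on 26 were under 2 times background, which limits what their differences can show.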
